A study of Mus musculus with 18 samples.

Results

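The 10 genes described here are immediate early genes, chosen by name: Fos, Fosb, Jun, Junb, Egr1, Atf3, Ier2, Ier5, Dusp1 and Btg2. All 10 were found among the 28252 genes of the deposited TPM table, and each was joined to its raw counts among the 53715 genes of the count table. TPM is a level scaled by transcript length and library size, so it can be compared between genes. Their levels were read in 18 libraries of mouse oocytes, 3 in each of 6 groups. The groups were oocytes of primordial follicles, oocytes of primary follicles and oocytes at metaphase II of meiosis (MII), each from sham mice and from mice of a group labelled NTY. All mice were of the C57Bl/6j x CBA/J cross and all samples were taken in vivo. The labels do not say what NTY stands for, how old the mice were, or how many mice gave a library. By the labelled protocol, microdissected material was cut by laser, pooled over caps of the same stage, amplified linearly and enriched for coding RNA before sequencing. Collected oocytes went through Smart-seq II, a full-length protocol for very small samples. The 12 libraries of primordial and primary follicles were taken as the microdissected ones and the 6 MII libraries as the collected ones, so between these sets the stage and the library method cannot be told apart.

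Immediate early genes are transcribed within minutes of a stimulus, without new protein synthesis. Kinase cascades reach factors already bound at their promoters, such as SRF with its ELK partners at CArG boxes and CREB at cAMP response elements. Fos, Fosb, Jun, Junb and Atf3 encode leucine zipper proteins that pair to form AP-1 or related dimers, Egr1 encodes a zinc finger factor, Dusp1 a phosphatase that switches off MAP kinases, and Btg2 an antiproliferative protein that speeds the removal of mRNA tails. Their mRNAs are short-lived in most cells, and they are also known to rise when tissue is handled or dissociated. An MII oocyte is transcriptionally silent, so its mRNA was made earlier, during growth.

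The promoters are shown here for Dusp1, Junb and Fosb, which differed between the sets of libraries in the main test, and for Fos, the best known member. Each sequence is the strand of the gene, 5′ to 3′, from the 250 bases before the RefSeq start (GRCm38.p6). Bases within an annotated exon of the GENCODE M21 set were left out at the end next to the start, 47 for Dusp1 and 6 for Fosb, so these run to 203 and 244 bases and stop short of the start. Junb and Fos end at the base before it. Capitals mark TGACG (the core of a cAMP response element), TGACGTCA (the full element) and TATAAA.
Dusp1, chr17:26508520-26508722, minus strand: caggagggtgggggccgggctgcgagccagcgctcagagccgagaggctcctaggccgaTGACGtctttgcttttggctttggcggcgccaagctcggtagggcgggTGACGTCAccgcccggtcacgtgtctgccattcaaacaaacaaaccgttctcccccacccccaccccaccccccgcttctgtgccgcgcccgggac
Junb, chr8:84978749-84978998, minus strand: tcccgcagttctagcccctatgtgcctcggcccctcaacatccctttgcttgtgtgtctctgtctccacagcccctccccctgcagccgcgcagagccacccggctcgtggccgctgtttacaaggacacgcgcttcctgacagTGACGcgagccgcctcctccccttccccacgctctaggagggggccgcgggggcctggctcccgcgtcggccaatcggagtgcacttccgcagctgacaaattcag
Fosb, chr7:19310052-19310295, minus strand: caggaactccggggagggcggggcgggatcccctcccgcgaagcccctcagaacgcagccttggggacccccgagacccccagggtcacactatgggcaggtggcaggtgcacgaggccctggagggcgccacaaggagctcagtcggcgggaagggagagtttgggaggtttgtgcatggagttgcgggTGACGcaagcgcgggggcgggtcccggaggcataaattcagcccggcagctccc
Fos, chr12:85473640-85473889, plus strand: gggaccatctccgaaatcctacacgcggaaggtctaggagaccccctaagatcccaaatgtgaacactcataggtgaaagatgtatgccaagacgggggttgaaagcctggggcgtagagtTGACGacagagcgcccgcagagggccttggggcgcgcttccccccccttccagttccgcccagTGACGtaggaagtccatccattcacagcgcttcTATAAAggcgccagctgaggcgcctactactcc

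Promoters were matched for 8 of the 10 genes, Egr1 and Ier2 having no entry. TGACG, searched on both strands in the 250 bases before the start, was present in 6 of the 8 (Fos, Fosb, Junb, Atf3, Dusp1 and Btg2), against 17.9% of 27025 promoters. The full element TGACGTCA, which contains TGACG, was present in Dusp1, 135 bases from the start, and in Btg2, 158 bases from the start, against 1.62% of promoters. TATAAA was present in Fos alone of the 8, with 27 bases between it and the start, against 13.0% of promoters. Neither a CArG box nor the AP-1 site TGANTCA was found in the 8 windows, and these occurred in 1.40% and 6.87% of promoters. Bases farther from the start, and the promoters of Egr1 and Ier2, were not searched, so sites there would be missed. A match is a run of letters, and the data hold no measurement of binding.

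The total count per library was 15149564 to 29205503 in the microdissected set and 8652089 to 9978830 in the MII set. The lowest level that could be read was set at 3 counts in a library, which is 0.103 to 0.198 CPM (counts scaled to the library total) in the microdissected libraries and 0.301 to 0.347 in the MII libraries. This covers counting error only. The summed TPM of 14 oocyte markers was 6729 to 10755 in MII libraries and 3.89 to 1970 in microdissected ones, where markers of stroma (460 to 7486) and granulosa cells (379 to 4032) were also present. In MII libraries the stromal sum was 0 to 1.29 and the granulosa sum 235 to 441. Of the 14 granulosa markers, 8 were over 3 counts in an MII library, and Foxl2, Amh, Amhr2, Inhbb, Wt1 and Fst were not. Smooth muscle markers summed to 4676 and 2995 TPM in primary NTY replicates 1 and 2. Replicate 1 also held the highest microdissected Jun and Btg2, and replicate 2 the highest Egr1. Epithelial markers reached 4260 TPM in primary sham replicate 2, and endothelial markers 566 in primordial sham replicate 1. In MII libraries these 3 sums were at most 65.8, 20.3 and 80.7. The library primordial NTY replicate 3 had the lowest oocyte sum (3.89) and a stromal sum of 5802. It also held the highest microdissected levels of Ier5, Atf3, Ier2 and Junb. In bulk material, more cells of a type and more RNA per cell cannot be told apart, and the part of other cell types in the levels below was not tested. Groups are named below as the labels name them. Oocytes of primordial and primary follicles thus stand for these libraries, which also held markers of other cells. No 2 libraries of a group were copies of each other. The library codes of primary NTY replicates 2 and 3 (2E and 2E2) differ by a last digit, and the labels do not say whether they share a source. With these libraries summed into 1, 0 members were called in the 3 follicle comparisons they enter and 3 (Fosb, Junb and Dusp1) between MII and microdissected libraries, as when they were kept apart.

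Egr1 was the one member over 3 counts in all 18 libraries, with 38 to 10610 counts, whereas 6.50% of all genes were over 3 counts in all 12 microdissected libraries. Its TPM was 1.80, 9.19 and 117 in primordial sham libraries and 16.7, 34.7 and 152 in primordial NTY libraries, in the order of replicates 1 to 3. It was 90.9, 15.0 and 33.5 in primary sham libraries and 45.0, 331 and 4.15 in primary NTY libraries. The 4 microdissected groups overlapped each other. In MII oocytes the level was far more even, with 48.4, 62.2 and 47.2 TPM in sham and 73.9, 67.0 and 36.3 in NTY libraries. The mean was 52.6 ± 8.33 (SD, n = 3) in MII sham and 59.1 ± 20.0 in MII NTY, against 126.7 ± 178.1 in primary NTY, the group with the largest SD.

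Dusp1 was the most abundant member in each of the 6 MII libraries, where it made up 69.9% to 87.9% of the summed TPM of the 10 genes. Its TPM was 296.7, 550 and 518 in MII sham and 353, 363 and 345 in MII NTY libraries. The mean was 455 ± 138 TPM in MII sham and 354 ± 9.15 in MII NTY (SD, n = 3), and the 3 NTY values lay within the sham range. In the microdissected libraries it ran from 0 to 497 TPM. The primordial sham libraries had 0, 295 and 0.0576 TPM, and the primordial NTY libraries 0, 0.0523 and 0.0470, which is at most 1 count each. The primary sham libraries had 8.37, 0.245 and 134 TPM, and the primary NTY libraries 2.24, 0 and 497. One microdissected library, primary NTY replicate 3, was thus above the lowest MII library.

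Junb, the partner protein that can restrain Jun, was low and even in MII oocytes and nearly absent elsewhere. Its TPM was 10.2, 15.4 and 18.9 in MII sham and 19.3, 28.9 and 10.4 in MII NTY libraries, from 81 to 231 counts. In the microdissected libraries it ran from 0 to 1.10 TPM, with at most 20 counts, and it was at 0 in 7 of 12 libraries. The lowest MII library was 9.24-fold above the highest microdissected one.

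**Figure D1:**
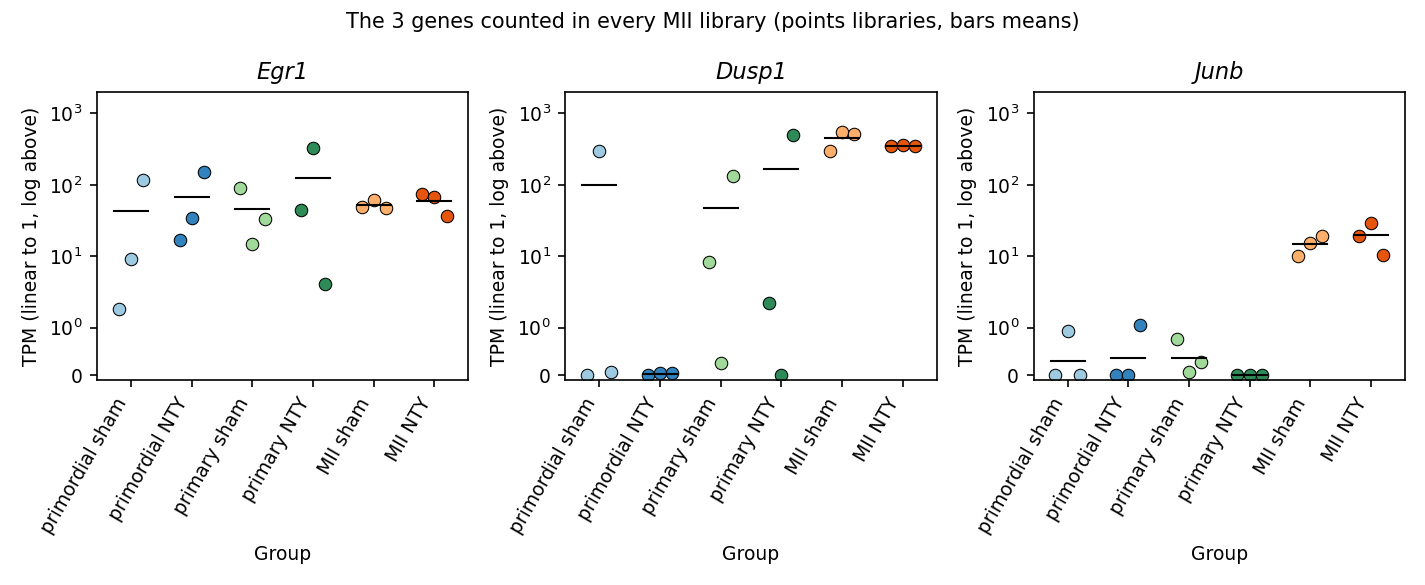
TPM of Egr1, Dusp1 and Junb by group on an axis that is linear up to 1 and logarithmic above; each point is a library and each bar the mean of 3. The MII points lie close together for all 3 genes, the microdissected Egr1 points spread from 1.80 to 331 TPM, and Junb alone shows no overlap between the MII and microdissected libraries.

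Among the MII libraries the order of the 10 genes by median TPM was Dusp1 (358), Egr1 (55.3), Junb (17.2), Btg2 (6.76), Ier2 (1.85), Fosb (1.66), Jun (0.987) and Fos (0.313), with Atf3 and Ier5 at 0. Every Dusp1 value was above every Egr1 value, and every Egr1 value above every Junb value. From Junb downwards the ranges of neighbours overlapped. Of the 10 genes, 3 (Dusp1, Egr1 and Junb) were over 3 counts in all 6 MII libraries, which is 30% and is near the 32.0% of all genes.

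The Fos partners were rare and patchy. Fos had 1.72 TPM in primordial sham replicate 3, 30.7 in primordial NTY replicate 2, 1.50 in primary NTY replicate 1 and 18.1 in primary NTY replicate 2, and was at most 2 counts in the other 8 microdissected libraries, including all of primary sham. In MII libraries Fos had 2.01, 1.69 and 0 TPM in sham and 0, 0 and 0.626 in NTY. Fosb, a close relative of Fos, was counted in 1 microdissected library, primary sham replicate 1, with 340 counts (7.88 TPM), and was at 0 in the other 11. In MII it had 2.12, 2.00 and 1.33 TPM in sham libraries and 0.141, 3.83 and 0 in NTY libraries. The 3 sham values lay within the NTY range.

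Jun, the partner without which Fos binds DNA poorly, was as patchy. It was at 0 in all 3 primordial sham libraries, and had 14.1, 0 and 0.278 TPM in primordial NTY, 53.2, 0 and 0.390 in primary sham and 149, 0 and 0 in primary NTY libraries. In MII libraries it had 1.26, 0.712 and 0 TPM in sham and 2.84, 8.21 and 0 in NTY. Of the microdissected libraries, 4 had Fos over 3 counts, 5 had Jun, and 1 had both (primary NTY replicate 1). Of the MII libraries, 3 had Fos, 4 had Jun and 2 had both. Fos or Fosb together with Jun or Junb was over 3 counts in 2 of 12 microdissected and 5 of 6 MII libraries. This count does not cover the whole families, because Fosl1, Fosl2 and Jund were left out. Fosl2 had 0.275 to 379 TPM (median 31.2) in microdissected libraries and at most 0.665 in MII. Jund had 0 to 934 TPM (median 119) in microdissected libraries and at most 6.39 in MII. Fosl1 went the other way, at 0 in all microdissected libraries and up to 7.94 TPM in MII.

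Atf3, a stress-responsive repressor, and Ier5, a cofactor of heat shock factor HSF1, were at 0 in all 6 MII libraries. At most 3 counts in each of these 6 libraries was found for 2 of the 10 members (20%), against 36.4% of all genes. Atf3 was over 3 counts in 2 microdissected libraries, with 33.2 TPM in primordial NTY replicate 3 and 17.4 in primary NTY replicate 3. Ier5 had 929 TPM (24005 counts) in primordial NTY replicate 3, 20.1 in primary sham replicate 3 and 1.94 in primordial NTY replicate 2. It had at most 1 count in the other 9 microdissected libraries. A single library thus held 97.7% of the Ier5 TPM summed over the microdissected set. That library was the one with the lowest summed TPM of oocyte markers (3.89), and the source of its Ier5 was not tested.

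Ier2, a nuclear protein of the early response, was low in every library. It reached 1.58 TPM in the microdissected set, and had 7.31, 1.68 and 2.01 TPM in MII sham and 13.8, 0 and 0 in MII NTY libraries. Btg2 had 25.4 TPM in primary NTY replicate 1, 5.96 in primordial NTY replicate 2 and at most 1.50 in the other 10 microdissected libraries. In MII libraries it had 5.35, 8.18 and 22.5 TPM in sham and 1.49, 48.3 and 0.322 in NTY. Both genes were over 3 counts in all 3 MII sham libraries but not in all 3 MII NTY libraries. Fewer genes of any kind were detected in MII NTY libraries. Any count was found for 12782 to 13608 genes there and for 15442 to 18239 in MII sham libraries.

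**Figure D2:**
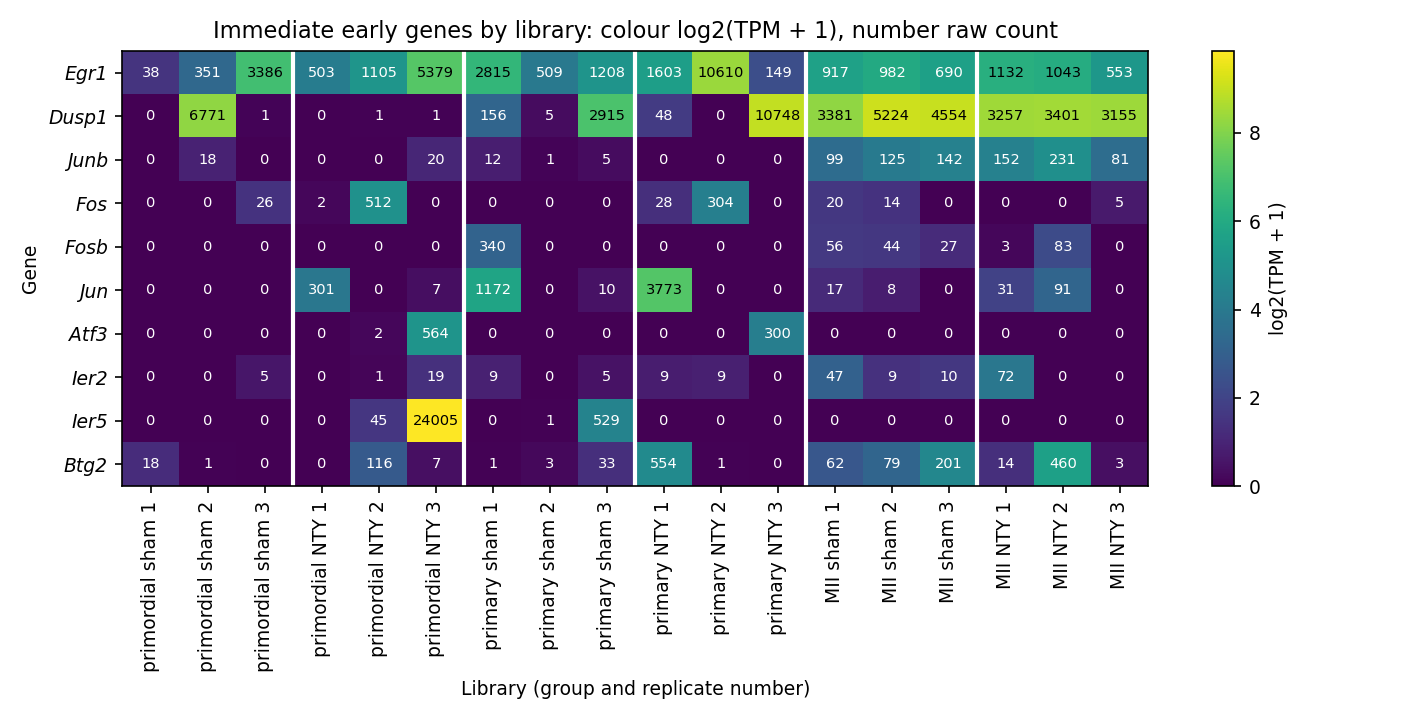
Level of the 10 genes (rows) in the 18 libraries (columns, by group and replicate number); colour is log2(TPM + 1) and the number in each cell is the raw count. Egr1 has counts in every column, Dusp1, Junb and Btg2 have counts in all 6 MII columns, and most other cells are at or near 0, with the highest count (24005) for Ier5 in primordial NTY replicate 3.

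A gene was called all-or-nothing in a group when a replicate had at least 100 counts and another at most 3. Of the members with at least 100 counts in a library of the group, this held in sham mice for 1 of 2 (primordial) and 3 of 5 (primary), and in NTY mice for 5 of 6 at both stages. The share of all genes was 51.4% and 29.0% in sham, and 53.6% and 49.2% in NTY mice. It held for 0 of 4 members in MII sham and for 1 of 4 (Btg2) in MII NTY, against 0.432% and 7.98% of all genes. Across the whole microdissected set it held for 7 of 8 members, Egr1 being the exception, against 83.4% of all genes. Dropping out between replicates was thus common among all genes of the microdissected libraries.

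The summed TPM of the 10 genes was 3.19 to 1118 in the microdissected and 373 to 642 in the MII libraries. The leading gene differed between microdissected libraries: it was Egr1 in 7, Dusp1 in 3, Ier5 in 1 and Jun in 1. In MII libraries it was always Dusp1. The number of members over 3 counts was 2 to 7 (median 3) in microdissected and 4 to 8 (median 6) in MII libraries. Among all genes, the number with any count was also higher in MII libraries. It was 12782 to 18239 (median 14525) there and 6147 to 13755 (median 10053.5) in microdissected libraries.

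**Figure D3:**
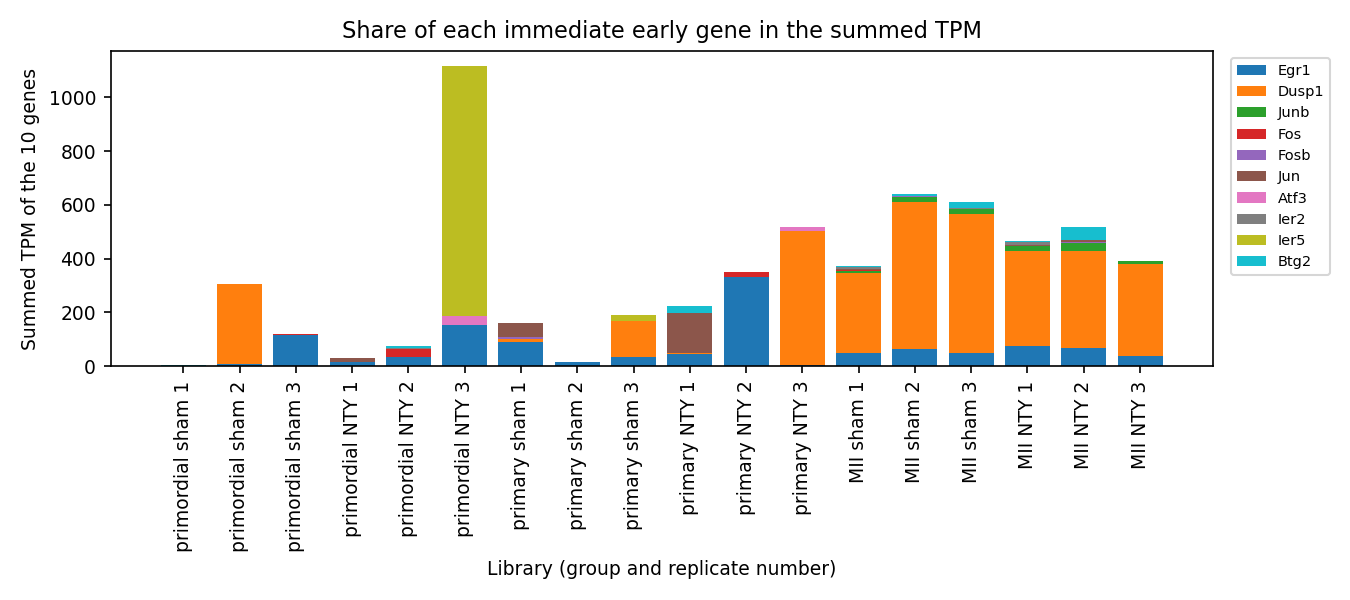
Summed TPM of the 10 genes in each library, stacked by gene, on a linear axis from 0. The 6 MII bars are alike and mostly Dusp1, while the microdissected bars run from 3.19 to 1118 and are led by different genes, with Ier5 filling the tallest one.

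NTY was compared with sham within each stage to ask whether these genes differed between the treatments. In oocytes of primordial follicles, 7 members had enough counts for edgeR's quasi-likelihood test and 0 had a Benjamini-Hochberg adjusted p under 0.05, where 0.00950% of all 10522 genes did (1 gene). The other 3 (Fosb, Atf3 and Ier2) were not tested. At an unadjusted p under 0.05 there were 3 members (Jun, Ier5 and Dusp1), against 10.9% of all genes, and without primordial NTY replicate 3 there were 2. DESeq2 without its Cook filter called these 3 members, where it called 11.4% of all genes, and with that filter 0, where it called 7.13%. By voom 0 were called. Each of them rested on 1 or 2 libraries. Jun and Ier5 were at 0 in every sham library, and Dusp1 was at most 1 count in every NTY library but over 3 counts in only 1 sham library. The log2 fold change of Egr1 was 1.12 ± 2.31 (SE, adjusted p = 0.934 by edgeR), and it was −0.98 without primordial NTY replicate 3.

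In oocytes of primary follicles 0 of the same 7 members passed edgeR's test, as did 0% of all 10522 genes. At an unadjusted p under 0.05 there were 2 members (Fos and Ier5), against 8.15% of all genes. DESeq2 called 2 members without its Cook filter (Fos and Ier5) and 1 with it (Fos), where it called 6.59% and 4.50% of all genes, and voom called 0. Fos was at 0 in the 3 sham libraries and at 1.50, 18.1 and 0 TPM in the NTY libraries. Ier5 was at 0 in the 3 NTY libraries. Egr1 had a log2 fold change of 2.21 ± 2.38 (SE, adjusted p = 1 by edgeR). It turned to −0.27 without primary NTY replicate 2, the library with 331 TPM.

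In MII oocytes 0 of 7 members tested passed edgeR's test, as did 0% of all 12209 genes. Replicates were close for Dusp1, Egr1 and Junb, and far apart in NTY libraries for Btg2, Ier2, Fosb and Jun. No member had an unadjusted p under 0.05, against 2.29% of all genes, and neither DESeq2 fit (0.238% of all genes with or without its Cook filter) nor voom called one. The log2 fold change of NTY over sham was −0.29 ± 0.25 (SE) for Dusp1, 0.17 ± 0.33 for Egr1 and 0.40 ± 0.54 for Junb, each with an adjusted p of 1.00 by edgeR. The direction of Egr1 rested on 1 library, its log2 fold change being −0.055 without MII NTY replicate 1.

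The stages were compared within each treatment. Between primary and primordial follicles, 0 of 7 members passed edgeR's test in sham mice, where 0.00950% of 10522 genes did, and 0 of 7 in NTY mice, where 0% did. At an unadjusted p under 0.05 there were 2 members in sham (Jun and Ier5) and 3 in NTY (Junb, Ier5 and Dusp1), against 9.28% and 9.97% of all genes. DESeq2 without its Cook filter called 2 members in each, where it called 7.29% (sham) and 10.7% (NTY) of all genes. With the filter it called 0 members in each, against 4.78% and 6.55%, and voom called 0. Egr1 differed little between the stages relative to its error, with a log2 fold change of primary over primordial of −0.28 ± 2.28 (SE) in sham and 0.81 ± 2.30 in NTY mice. These comparisons share libraries with those of NTY and sham.

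Whether NTY acted differently at the 2 follicle stages was tested as an interaction. It passed for 0 of 7 members and for 0.00950% of the 10522 genes. The lowest adjusted p among the members was 0.153 by edgeR, for Ier5, and 2 members (Ier5 and Dusp1) had an unadjusted p under 0.05, against 11.8% of all genes. DESeq2 called 3 members without its Cook filter and 0 with it, where it called 11.6% and 7.05% of all genes, and voom called 0. Ier5 also passed edgeR's test when primary sham replicate 1 or 2, or primordial NTY replicate 1 or 2, was left out, and under a filter that kept genes with any count. It did not pass without primordial NTY replicate 3, which held 24005 of its counts.

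The MII libraries were set against the microdissected ones with stage and library method inseparable. Of 9 members tested, 3 were called, all higher in MII oocytes: Junb, Dusp1 and Fosb. This share of 33.3% was below the 59.5% of all 15929 genes that were called, and below the 42.3% that were called higher in MII libraries. The median log2 fold change of all genes was itself 1.64. Junb had a log2 fold change of 6.23 ± 1.31 (SE, adjusted p = 0.000822 by edgeR), which is 4.59 above that median, and it passed under all 29 alternatives that tested it. Dusp1 had 4.32 ± 1.54 (adjusted p = 0.0222 by edgeR), but 1.96 with an adjusted p of 0.345 when each set of libraries had 1 mean. Fosb passed with an adjusted p of 0.00593 by edgeR. Its fold is not given, because 3 of the 4 microdissected groups were at 0, and its only microdissected library above 0 (7.88 TPM) was higher than every MII library. Ier2 and Btg2 were each called in 6 of their alternatives, Ier2 without primordial NTY replicate 3 or primordial sham replicate 3, and Btg2 without primordial sham replicate 1 or primary NTY replicate 1, among others.

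Only Junb had every MII value above every microdissected value, which is 1 of 9 members tested, against 22.4% of all genes. Egr1 did not pass (log2 fold change −0.97 ± 1.03, adjusted p = 0.445 by edgeR), and 5 of 12 microdissected libraries were at or above its lowest MII level. Junb overlaps a neighbour. The gene (chr8:84974484-84978718, minus strand) shares 173 exonic bases with Prdx2 on the other strand, an antioxidant gene that had 107 to 356 TPM in MII and 0 to 15.6 in microdissected libraries. None of these bases lie in the longest coding transcript of Junb. Whether counting used strand is not given in the sources used here, and the part of Prdx2 reads in the Junb counts was not tested. Dusp1 shares 11 such bases with Ergic1, which was lower in MII (0.312 to 4.93 TPM) than its microdissected median of 52.4. Jun shares 232 with the antisense RNA Junos, which was at 0 in every microdissected library and at most 1.15 TPM in MII.

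The other genes of the early response were read from a list of 59 genes, 58 of them in the table. In oocytes of primordial follicles 40 were tested for NTY against sham and 0 passed edgeR's test, with 12 at an unadjusted p under 0.05, against 10.9% of all genes, and a median log2 fold change of 2.77 beside 0.12 for all genes. DESeq2 called 10 of the 40 higher and 2 lower in NTY without its Cook filter, and 7 higher with it, against 11.4% and 7.13% of all genes called in either direction, and voom called 0. In the same groups the summed TPM of granulosa markers was 2143 to 4032 in NTY and 379 to 2337 in sham libraries, that of stromal markers 1259 to 5802 and 460 to 3488, and that of oocyte markers 3.89 to 651 and 365 to 1970. The part of these cells in the list's values was not tested. Without primordial NTY replicate 3, 13 of 46 had an unadjusted p under 0.05 and the median was 1.83. Id2, an inhibitor of helix-loop-helix factors, had 15.0 to 698 TPM in NTY and 0 to 1.25 in sham libraries. Spry4, an inhibitor of receptor tyrosine kinase signalling, had 1.56 to 41.8 TPM in NTY and 0 to 0.542 in sham. Their adjusted p was 0.405 and 0.480 by edgeR, so neither passed the test. The genes named were picked for groups that did not overlap, which held for 7 of the 40, against 7.98% of all genes. Dusp6, Pim1 and Id1 were among them and did not pass.

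In oocytes of primary follicles 0 of the 40 passed for NTY against sham by edgeR. There were 2 at an unadjusted p under 0.05, against 8.15% of all genes. The median log2 fold change was −0.70 beside −0.096 for all genes. DESeq2 called 2 without its Cook filter and 1 with it, against 6.59% and 4.50% of all genes, and voom called 0. In MII oocytes 0 of 39 passed by edgeR, DESeq2 (0.238% of all genes) and voom. By edgeR 1 had an unadjusted p under 0.05, against 2.29% of all genes. This was Mafk, a small Maf factor, with 9.60 to 19.6 TPM in NTY and 1.02 to 3.46 in sham. Mafk was the 1 list gene of 39 whose MII groups did not overlap, against 7.56% of all genes. Between primary and primordial follicles 0 of the 40 passed by edgeR in either treatment, with 11 at an unadjusted p under 0.05 in sham and 3 in NTY mice. Among all genes, 9.28% and 9.97% had such a p. DESeq2 without its Cook filter called 7 in each, with it 3 in each, and voom called 1 in sham and 0 in NTY. Of all genes, DESeq2 called 7.29% and 10.7% without the filter and 4.78% and 6.55% with it. By voom these shares were 1.36% and 0.0190%. Bhlhe40, a repressor of the molecular clock, had 16.5 to 143 TPM in primary sham and 0 to 0.264 in primordial sham libraries, with an adjusted p of 0.478 by edgeR. It was picked among 11 of the 40 whose groups did not overlap, against 15.1% of all genes. For the interaction 0 passed by edgeR and voom, with 7 at an unadjusted p under 0.05 by edgeR, against 11.8% of all genes. DESeq2 called 7 without and 4 with its Cook filter there, against 11.6% and 7.05% of all genes.

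Between MII and microdissected libraries, 27 of the 48 early response genes tested were called by edgeR, 17 higher and 10 lower in MII, which is near the 59.5% of all genes called (42.3% higher). Ppp1r15a, which reverses the stress-induced stop of translation, had 113 to 247 TPM in MII and at most 1.60 in microdissected libraries (adjusted p = 6.65e-05 by edgeR). Klf4, a Krüppel-like factor, had 8.89 to 22.2 TPM against at most 0.570. Other AP-1 members went the other way. Fosl2 had at most 0.665 TPM in MII and a median of 31.2 in microdissected libraries, and Jund at most 6.39 against a median of 119. Fosl1, in contrast, was at 0 in all 12 microdissected libraries and reached 7.94 TPM in MII. Myc was at 0 in all 6 MII libraries and reached 32.9 TPM in microdissected ones.

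The kinases and factors that act on these genes formed a list of 28, with 27 in the table. None of the 26 or 25 tested passed edgeR's test for NTY against sham, with 2, 1 and 2 at an unadjusted p under 0.05 in primordial, primary and MII oocytes. Among all genes, 10.9%, 8.15% and 2.29% had such a p. DESeq2, with or without its Cook filter, called 2, 1 and 0, and voom called 0. Of all genes, DESeq2 called 11.4%, 6.59% and 0.238% without the filter and 7.13%, 4.50% and 0.238% with it. In primordial follicles, NTY and sham did not overlap for 4 of the 26 (3 higher in NTY), against 7.98% of all genes. In MII oocytes they did not overlap for 5 of the 25 (1 higher in NTY), against 7.56% of all genes. None of the list passed edgeR's test between the follicle stages or for the interaction either. At an unadjusted p under 0.05 there were 0 (sham), 2 (NTY) and 2 (interaction). Among all genes, 9.28%, 9.97% and 11.8% had such a p. DESeq2 called 1, 2 and 1 there without its Cook filter and 0, 2 and 1 with it, and voom called 0. Of all genes, DESeq2 called 7.29%, 10.7% and 11.6% without the filter and 4.78%, 6.55% and 7.05% with it. Between MII and microdissected libraries 3 of 26 were called higher and 8 lower, against 42.3% of all genes called higher and 59.5% called in either direction. Mos, the kinase that drives the MAP kinase cascade of maturing oocytes, had 455 to 1383 TPM in MII and at most 48.1 in microdissected libraries. Atf1, a relative of CREB, had 61.3 to 131 TPM against at most 3.47. Creb1 itself had at most 0.723 TPM in MII and a median of 14.0 in microdissected libraries. Srf, the factor of the CArG box, had at most 3.75 TPM in MII and a median of 220 in microdissected libraries, with adjusted p = 0.000887 by edgeR. Braf, a kinase upstream of ERK, had at most 1.72 against a median of 44.2. For the genes of both lists named here between these sets, the direction was the same under TMM, RLE and plain library totals, also relative to the median of all genes.

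**Figure D4:**
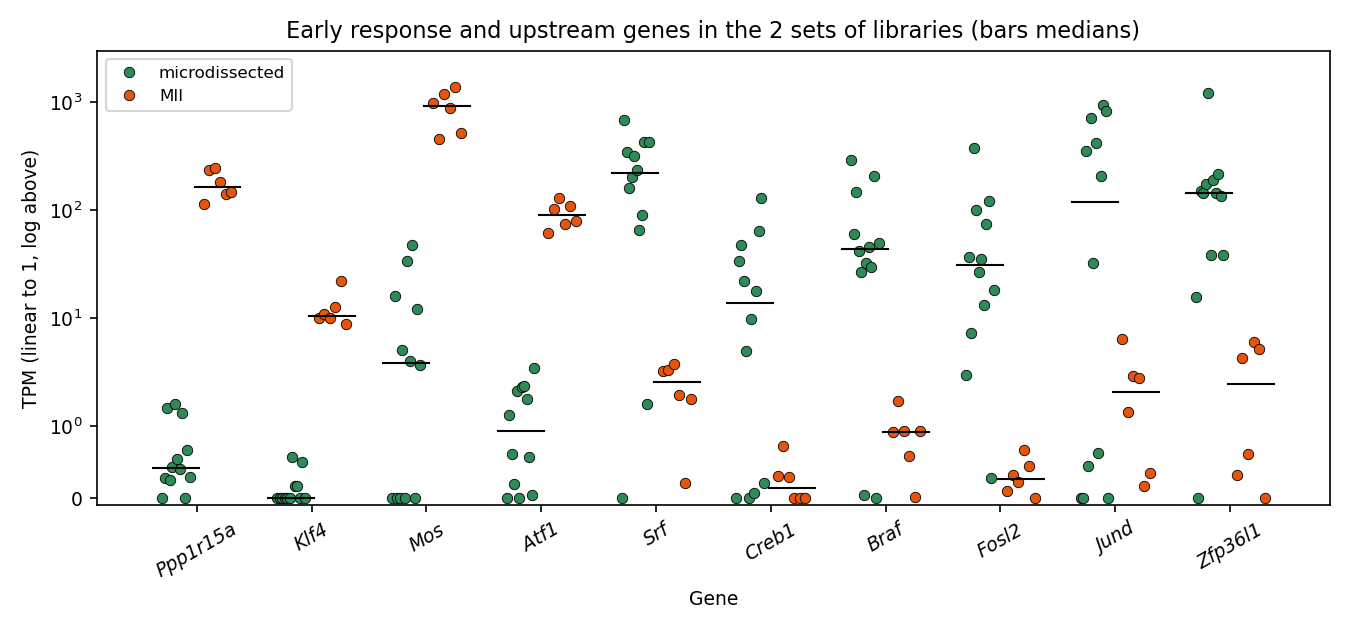
TPM of 10 genes from the early response and upstream lists in the 12 microdissected (green) and 6 MII libraries (orange); the axis is linear up to 1 and logarithmic above, and bars are medians. Ppp1r15a, Klf4, Mos and Atf1 are higher in every MII library than in any microdissected one, and Srf, Creb1, Braf, Fosl2, Jund and Zfp36l1 have higher medians in the microdissected set, with some microdissected libraries at or near 0.

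The structure of the genes gave few shared features. Jun, Junb, Ier2 and Ier5 have a single exon in their longest coding transcript, which is so for 6.82% of coding genes. The others have 2 (Egr1 and Btg2) or 4 exons (Fos, Fosb, Atf3 and Dusp1), against a median of 7. The GC content of these transcripts was 49.7% (Btg2) to 62.6% (Junb), above the median of coding genes (49.1%) in all 10. On GRCm38, 3 of the genes lie on chromosome 1, namely Atf3 (chr1:191170296-191218039), Ier5 (chr1:155096361-155099636) and Btg2 (chr1:134075170-134079120), and Jun lies on chromosome 4 (chr4:95049034-95052222), all on the minus strand.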

How the data were processed

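The 10 genes and all gene lists were chosen with earlier results of these data known. The authors deposited raw counts of reads per gene, not normalized, and a table of TPM made by the authors, whose gene lengths are not given in the sources used here. The submitters' processing notes name Trim Galore 0.4.1, TopHat2, featureCounts and the mm10 build. Groups and replicate numbers came from the labels. Whether replicates were separate animals is not stated, so p-values measure only the spread between these libraries.

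Counts were tested with edgeR 4.0.16 in R 4.3.3 (quasi-likelihood, robust, TMM, filterByExpr), adjusted by Benjamini-Hochberg over all genes tested, at 0.05. The 12 microdissected libraries shared a fit, the 6 MII libraries were fitted alone, and all 18 were used between these sets. Alternatives were RLE, plain totals, DESeq2 1.42.0 with and without its Cook filter, limma 3.58.1 (voom with quality weights, and log2(TPM + 1) or log2(TPM + 0.1)), other filters, a replicate block and leaving out each library. A fit with 1 mean per set of libraries was added after the data had been seen. The fits were also run on simulated counts with a dispersion (spread between replicates) of 0.1. The common dispersion of these data was larger, at 3.59 (microdissected), 0.542 (MII) and 2.55 (all 18 libraries). That run therefore does not show how large a change the fits could find here. All 10 genes were named in every comparison. List genes were picked by size of change, up to 5 in each direction, among those called. Where fewer than 5 were called, genes with a mean of at least 10 CPM whose groups did not overlap were also eligible. Only some of the genes picked in this way are named in the text. Trib1, Cebpd and Mapkapk2, for example, were picked between MII and microdissected libraries and are not described. Coordinates came from GENCODE M21 on GRCm38 and promoters from RefSeq (GRCm38.p6). The paper given with these data is a culture protocol and states no test for them.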

Additional observations from a re-analysis of the deposited data

How the results depend on the processing

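The counts of the 10 genes called depended on the tool. DESeq2 without its Cook filter called 3 in primordial follicles (Ier5, Jun and Dusp1), 2 in primary follicles (Ier5 and Fos), 2 between stages in sham (Ier5 and Jun), 2 between stages in NTY (Ier5 and Dusp1), 3 for the difference of the NTY effect (Ier5, Jun and Dusp1) and 7 between MII and microdissected libraries, where edgeR called 0, 0, 0, 0, 0 and 3. Of all genes, DESeq2 without that filter called 11.4%, 6.59%, 7.29%, 10.7%, 11.6% and 67.1%, in the same order. With the Cook filter it called 1 in primary follicles (Fos) and 5 between MII and microdissected libraries, against 4.50% and 61.8% of all genes. A filter on any count gave 1 for the difference (Ier5), against 0.0583% of all genes. Leaving out 1 library gave 0 to 1 there and 3 to 4 between the sets of libraries. The shares of all genes were then 0% to 0.0685% and 50.2% to 58.3%. Between these sets RLE normalization gave 5, and 1 mean per set gave 1 (Junb). Requiring 10 counts or more in each library gave 0 because 1 of the genes was left to test. Of all genes tested, RLE called 63.0%, 1 mean per set 48.6% and the filter of 10 counts 51.4%. For MII oocytes 0 were called under all 16 alternatives. The numbers of all genes called ranged from 0 to 1201 (primordial), 0 to 693 (primary), 0 to 767 and 0 to 1121 (stages in sham and NTY), 0 to 1216 (difference), 0 to 170 (MII) and 535 to 11037 (MII against microdissected). In that last comparison 71.0% of the calls were higher in MII by edgeR, 58.3% with 1 mean per set, 81.4% by limma on log2(TPM + 0.1), 81.0% on log2(TPM + 1) and 33.3% among the 1040 genes left by that strictest filter. The cause of these shifts was not tested, beyond the fewer genes tested by the stricter filter.

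The log2 fold change of Egr1 changed sign in primordial follicles without primordial NTY replicate 3 (−0.98, range over left-out libraries −0.98 to 4.06), in primary follicles by voom (−0.10) and without primary NTY replicate 2 (−0.27, range −0.27 to 2.93), and in MII oocytes without MII NTY replicate 1 (−0.055, range −0.055 to 0.37). None of these passed the test. Between MII and microdissected libraries Fosb was not called by limma on log2(TPM + 1) (0.89, adjusted p = 0.104). Pairing by replicate number was not borne out: same-numbered libraries deviated with correlations of −0.08 to 0.09. With a replicate block 0 members were called in the 6 comparisons within the sets and 3 between them, as without it.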

Other observations

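Heat shock genes, another early response to stress, were read from a list of 10. None of the 9 tested in microdissected libraries or the 7 tested in MII libraries passed edgeR's test for NTY against sham. In primordial, primary and MII oocytes, 1, 0 and 0 were at an unadjusted p under 0.05. Among all genes, 10.9%, 8.15% and 2.29% had such a p. DESeq2 called 1 in primordial oocytes without its Cook filter and 0 otherwise, and voom called 0. Of all genes, DESeq2 called 11.4%, 6.59% and 0.238% without the filter and 7.13%, 4.50% and 0.238% with it. Between primary and primordial follicles 0 passed by edgeR, with 2 (sham) and 0 (NTY) at an unadjusted p under 0.05, and for the interaction 0 passed with 0 at an unadjusted p under 0.05. Among all genes, 9.28%, 9.97% and 11.8% had such a p in these 3 comparisons. DESeq2 without its Cook filter called 1 in sham, 0 in NTY and 1 for the interaction, with it 0, and voom called 0. Of all genes, DESeq2 called 7.29%, 10.7% and 11.6% without the filter and 4.78%, 6.55% and 7.05% with it. Between MII and microdissected libraries 1 of 10 was called higher in MII (Hspb1) and 5 lower, against 59.5% of all genes called and 42.3% called higher. Bag3, a co-chaperone, was at 0 in all 6 MII libraries and had a median of 217 TPM in microdissected ones. Hspa8, the constitutive HSP70, had 12.1 to 35.8 TPM in MII and 89.9 to 2143 in microdissected libraries. Hsp90ab1 had 133 to 402 TPM against 1488 to 4911.

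Likeness to the 10 genes was measured as Pearson's r of log2(CPM + 1) with the mean log2(CPM + 1) of the 10, as a description. Over the 12 microdissected libraries the most alike of 7605 genes were Tspan6 (r = 0.846), Tnks1bp1 (0.838), Dse (0.823), Smcr8 (0.821) and Gng12 (0.818). Gng12 was at most 0.772 TPM in these libraries. Over the 6 MII libraries the most alike of 8304 genes were C330018D20Rik (0.989), Casc3 (0.988), Syngr2 (0.988), Gm20548 (0.985) and Sh3glb1 (0.985). In both sets these were the highest of all values compared, over few libraries, and they were not tested. The libraries of each set share a library method, and they differ in depth.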
